A study of Mus musculus with 2 samples.

Results

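Autophagy is the process by which a cell wraps part of its cytoplasm in a double membrane, the autophagosome, and delivers it to the lysosome. A kinase complex starts the process, a lipid kinase marks the membrane, lipid carriers let it grow, and conjugation enzymes attach small ubiquitin-like proteins of the ATG8 family that draw in cargo receptors. In the granulocyte lineage autophagy has been linked to the differentiation of precursors and to the release of granules.

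The autophagy machinery was described here through 39 named genes, and a gene was measured when the platform annotation gave it a probe set of its own. This held for 37 of the 39 genes, with 88 probe sets among them, out of 18194 genes and 34958 such probe sets on the array. The receptor genes Optn and Bnip3l had none and were not analysed here as single genes. The cells were neutrophils freshly isolated from the bone marrow of C57BL/6 mice, sorted as living cells (not stained by DAPI) with high Gr-1 and without CD48, in 2 separate experiments that gave 1 array each. Both arrays belong to the same untreated group and are called replicate 1 and replicate 2. The antibody to Gr-1 can also bind monocytes, and CD48 is carried by most other leukocytes. The labels used here do not give the age, the sex or the number of mice per sample. With 1 group there is no contrast between conditions, so the data show which autophagy genes were above background and how far each gene differed between the experiments. With 1 array per experiment these differences carry no test, and the spread may be technical.

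The median signal over all 45101 probe sets was 65.5 on replicate 1 and 71.6 on replicate 2. Background was set at the 95th percentile of the sensory receptor probe sets, 108 and 131 on the respective arrays. The label was set beside marker genes. Their lists were chosen with earlier results of these data known, so they are no independent check of it. All 13 measured neutrophil markers were above background on both arrays, where 40.4% of all measured genes were. Of the markers of other cells, those above it on both arrays were 1 of 8 for the B lineage, 1 of 7 for T and NK cells, 1 of 8 for eosinophils, basophils and mast cells, 1 of 5 for megakaryocytes, 1 of 7 for stem and progenitor cells, 2 of 7 for stroma and endothelium, 3 of 8 for the erythroid lineage and 6 of 13 for monocytes and macrophages. The ratio of 3' to 5' signal was 0.76 and 0.78 for the Gapdh control and 1.10 and 1.25 for the beta-actin control on replicates 1 and 2.

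Promoter sequences are shown for the members that hold an E-box (CACGTG), because the transcription factors Tfeb, Tfe3 and Mitf, which drive autophagy and lysosome genes, bind E-boxes, as do other factor families. RefSeq promoters (build GRCm38.p6, 250 bases before to 50 after a start site) were found for 32 of the 39 genes, with 38 start sites. The E-box, which reads the same on both strands, stood in 5 of these 38 promoters (13.2%), those of Atg3, Atg5, Atg7, Atg14 and Bnip3. Over all 32851 promoters the share was 7.15%, and over the 7720 promoters of genes above background on both arrays it was 10.1%. The 250 bases before the start site are given for 4 of them, 5' to 3' on the gene's strand, with the E-box in capitals.
Atg3: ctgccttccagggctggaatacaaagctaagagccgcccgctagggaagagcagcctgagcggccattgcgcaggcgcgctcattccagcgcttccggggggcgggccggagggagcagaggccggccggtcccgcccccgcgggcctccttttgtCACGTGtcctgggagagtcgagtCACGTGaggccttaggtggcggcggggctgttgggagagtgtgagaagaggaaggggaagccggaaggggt
Atg5: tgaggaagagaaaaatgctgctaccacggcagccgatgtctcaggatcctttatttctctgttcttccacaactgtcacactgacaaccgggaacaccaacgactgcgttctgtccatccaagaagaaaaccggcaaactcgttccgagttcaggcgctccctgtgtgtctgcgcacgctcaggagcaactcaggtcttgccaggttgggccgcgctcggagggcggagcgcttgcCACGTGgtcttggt
Atg7: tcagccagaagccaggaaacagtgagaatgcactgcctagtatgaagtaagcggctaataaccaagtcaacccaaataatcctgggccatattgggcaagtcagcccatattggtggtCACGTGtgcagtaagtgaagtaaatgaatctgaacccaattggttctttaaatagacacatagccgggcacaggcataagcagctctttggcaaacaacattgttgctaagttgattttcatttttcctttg
Bnip3: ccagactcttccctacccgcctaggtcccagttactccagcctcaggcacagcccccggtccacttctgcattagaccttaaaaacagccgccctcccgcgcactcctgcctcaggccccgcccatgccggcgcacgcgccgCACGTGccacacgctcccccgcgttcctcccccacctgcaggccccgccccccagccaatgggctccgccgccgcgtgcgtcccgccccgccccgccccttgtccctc

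The Atg3 stretch lies at chr16:45158579-45158828 on the plus strand, Atg5 at chr10:44268089-44268338 on the plus strand, Atg7 at chr6:114670846-114671095 on the plus strand and Bnip3 at chr7:138909507-138909756 on the minus strand. Atg3 held 2 E-boxes, beginning 94 and 71 bases before the start site. Those of Atg5, Atg7 and Bnip3 began 14, 132 and 108 bases before it, and that of Atg14 spanned the start site. The longer form GTCACGT, searched on both strands and overlapping the E-box where a G follows, was found in the promoters of Atg3, Atg7 and Atg14. Its share was 7.89% of the member promoters, 3.19% of all promoters and 5.92% of those of genes above background. The forkhead motif GTAAACA, searched on both strands, was in no member promoter (3.65% of all promoters and 2.75% of those of genes above background). A match describes these letters only. The member promoters had a median GC content of 61.0% and a median of 20 CpG dinucleotides, against 52.7% and 7 over all promoters and 61.3% and 21 over promoters of genes above background. The lowest CpG count among them, 1, was at a start site of Vmp1.

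Most of the machinery was above background. Of the 37 measured genes 33 (89.2%) were above it on both arrays, where 40.4% of all measured genes were. The members had many probe sets, which gives a gene more chances to pass. Among genes with 1 probe set, 8 of 9 members were above background and 26.7% of all genes. With 2 or 3 probe sets the numbers were 19 of 22 and 50.5%, and with 4 or more they were 6 of 6 and 68.6%. Counted by probe set, 61 of 88 member probe sets (69.3%) were above background on both arrays, beside 35.5% of all single-gene probe sets. The genes that did not pass were Atg2b, Atg10, Gabarapl1 and Calcoco1. In bulk RNA, fewer cells that express a gene and less RNA per cell cannot be told apart.

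**Figure D1:**
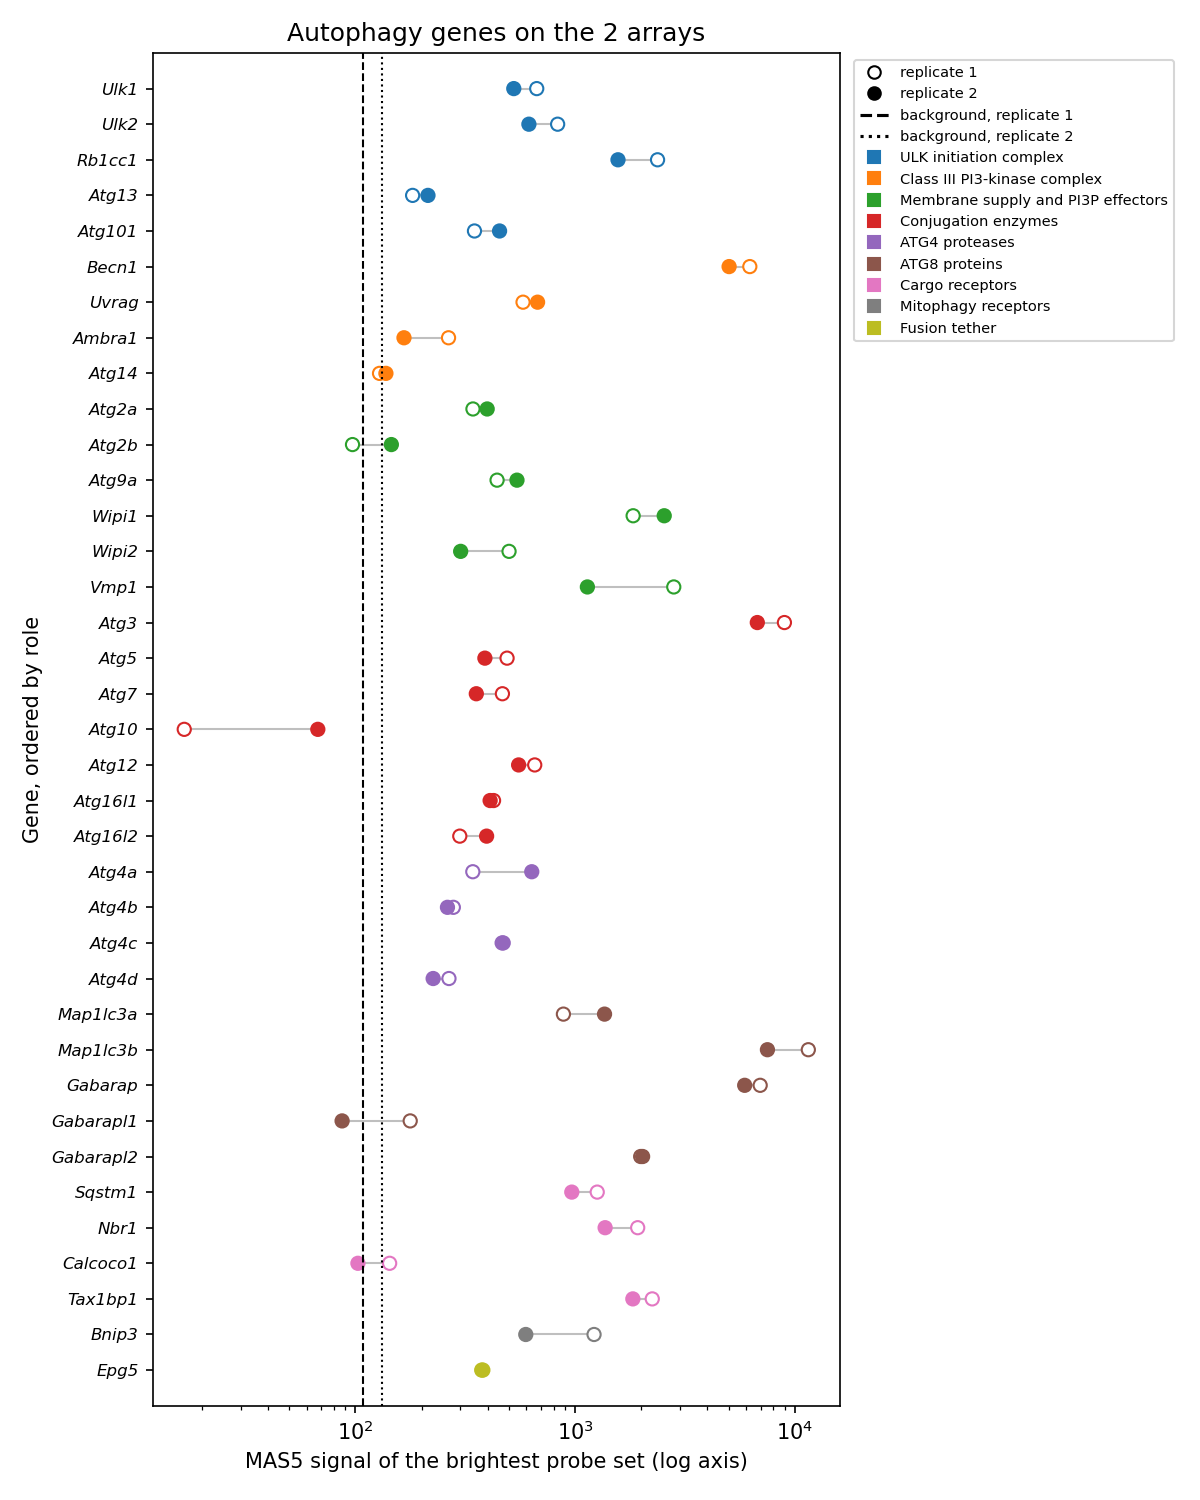
MAS5 signal (log axis) of the brightest probe set of each of the 37 measured autophagy genes on replicate 1 (open circles) and replicate 2 (filled circles), coloured by role, with the background of each array as vertical lines. Of these genes, 33 had a probe set above background on both arrays, and Atg10 lay below it on both.

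Between the arrays the median of the machinery genes lay slightly lower on replicate 2, and most genes differed little. Over the 33 genes above background the median log2 difference, replicate 2 minus replicate 1, was -0.24 (SD over genes 0.47), and it was 0.07 (SD 0.50) over all 7354 genes above background. Of the 33 genes, 20 were lower and 13 higher on replicate 2, and 43.7% of all genes above background were lower. These directions hold for the scaling as deposited: with scaling to the hybridisation controls, which were 1.64-fold brighter on replicate 2, 32 of the 33 genes were lower, and so were 6736 of all 7354. The distance between the median of the members and that of all genes was -0.31, and 23 of the 33 genes lay below the median of all genes. Median scaling and scaling to the controls move every gene by the same amount and cannot change these values. Quantile normalization, which can, gave a distance of -0.28 and again 23 genes. The difference stayed within 1.5-fold for 25 of the 33 members (75.8%) and for 79.5% of all genes above background. Over 2-fold lower on replicate 2 were 2 members, Vmp1 and Bnip3 (1.97% of all genes), and no member was over 2-fold higher (3.43% of all genes). In either direction, 5.40% of all genes above background were over 2-fold apart.

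**Figure D2:**
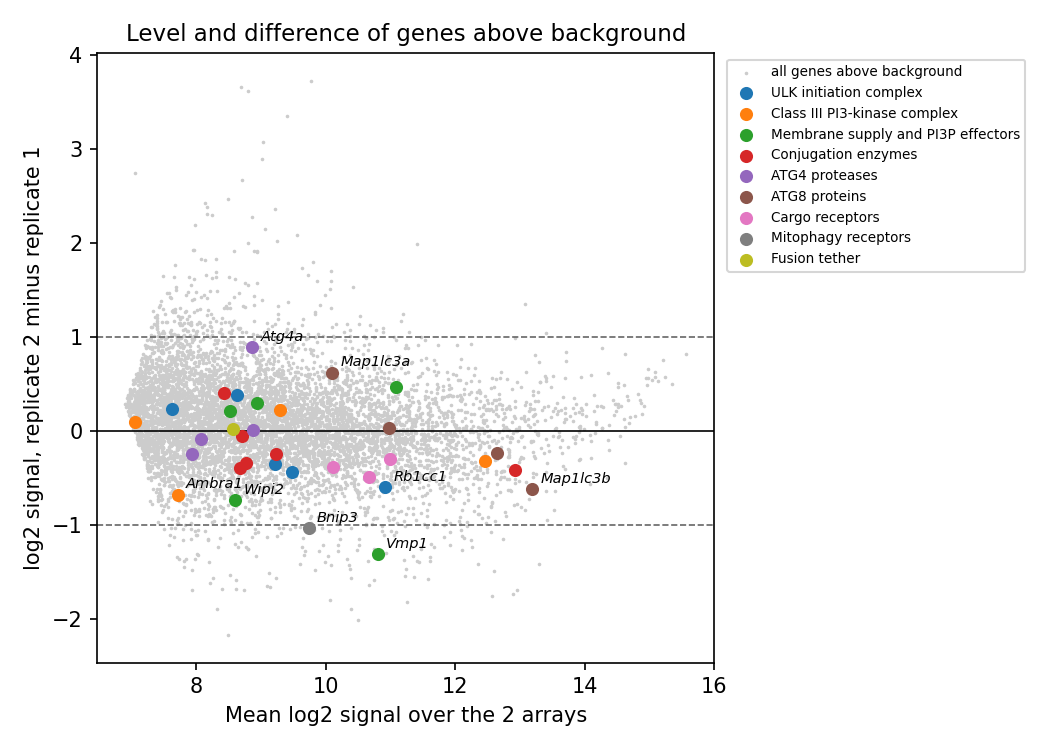
Difference between the arrays (log2 signal, replicate 2 minus replicate 1) against the mean log2 signal for all 7354 genes above background (grey) and the 33 autophagy genes (coloured by role). Dashed lines mark a 2-fold difference; Vmp1 and Bnip3 lie beyond the lower one, and no autophagy gene lies beyond the upper one.

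The genes of the ULK initiation complex, the kinase that starts autophagosome formation, were all above background. The kinase genes Ulk1 and Ulk2 had signals of 669 and 833 on replicate 1 and 526 and 616 on replicate 2. Rb1cc1, which encodes the scaffold FIP200, had 2375 and 1568, a log2 difference of -0.60, and its second probe set above background gave -0.47. These 3 genes were lower on replicate 2, also with quantile normalization. Atg13, an adaptor subunit, had 182 and 214 on its brightest probe set, close above background, and 176 and 163 on its second, so its direction is not settled. Atg101, which stabilises Atg13, had 348 and 453. Atg101 was higher on replicate 2 as deposited and with quantile normalization (0.35), but lower with scaling to the hybridisation controls (-0.34).

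Becn1, Uvrag, Ambra1 and Atg14, which act in or on the class III phosphatidylinositol 3-kinase complex that makes the lipid PI3P on the growing membrane, were above background too. The kinase gene itself, Pik3c3, is no member and had signals of 381 and 389.6, and that of its regulatory subunit, Pik3r4, had 224 and 195. Becn1, the scaffold Beclin 1, had signals of 6249 and 5029, a level of 12.45 ± 0.22 (SD, n = 2) on the log2 scale. All 4 of its probe sets above background were lower on replicate 2, by log2 differences of -0.31 to -0.06. Uvrag, the subunit of the endosomal form of the complex, had 579 and 675, and Atg14, which directs the complex to autophagosome formation, had 129 and 138, close to the background on both arrays. Ambra1, a regulator of Beclin 1, had 265 and 166 on its brightest probe set. Its other probe sets differed the opposite way, with 164 and 186 on one and 172 and 224 on the other, so the gene has no settled direction.

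Of the 6 genes for membrane supply and PI3P reading, 5 were above background on both arrays. Wipi1, a PI3P-binding protein of the WIPI family, had signals of 1839 and 2547, a log2 difference of 0.47. All 6 of its probe sets were above background and all 6 were higher on replicate 2, by 0.30 to 0.59. The difference of its brightest probe set was 0.53 with quantile normalization and -0.24 with scaling to the hybridisation controls. Wipi2, which recruits Atg16l1 to the membrane, had 500.4 and 301, a log2 difference of -0.73. Its second probe set, above background on replicate 1 alone, had 166 and 125.

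Vmp1, a lipid scramblase of the endoplasmic reticulum that autophagosome formation needs, had 2815 and 1138 on its brightest probe set and was 2.47-fold higher on replicate 1. This was the widest gap among the 33 members. Its other probe set had 159 and 239, a log2 difference of 0.59 in the opposite direction, and averaging the probe sets brought Vmp1 within 2-fold. Atg9a, the scramblase carried by autophagy vesicles, had 441 and 544, and Atg2a, a lipid transfer protein, had 343 and 398. Its paralogue Atg2b gave 96.9, below background, on replicate 1 and 146, above it, on replicate 2.

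The conjugation genes were above background except Atg10. Atg3, the E2-like enzyme that hands ATG8 proteins to the membrane lipid, had 8982 and 6759.7, a level of 12.93 ± 0.29 (SD, n = 2). Atg7, the E1-like enzyme, had 467 and 355, and its 3 probe sets above background were all lower on replicate 2, by -0.47 to -0.07. Atg5 had 490.2 and 388, with all 3 probe sets lower, and its ubiquitin-like partner Atg12 had 655 and 553, with both probe sets above background lower. These 4 genes were lower on replicate 2, also with quantile normalization.

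Atg16l1, which places the Atg12-Atg5 conjugate on the membrane, had 425 and 410.4 and so almost the same signal on both arrays. Its paralogue Atg16l2 had 299 and 396, a log2 difference of 0.41. This difference was 0.37 with quantile normalization and -0.31 with scaling to the hybridisation controls. Atg10, the E2-like enzyme that joins Atg12 to Atg5, had a single probe set with 16.6 and 67.4, below background on both arrays. A probe set below background gives only an upper bound for the signal, so this does not show that Atg10 RNA was missing.

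The 4 ATG4 protease genes, whose products trim ATG8 proteins and release them from membranes, were all above background. Atg4a had signals of 342 and 635, 1.86-fold higher on replicate 2. Its log2 difference was 0.89, with quantile normalization 0.86 and with scaling to the hybridisation controls 0.18. Atg4b had 279 and 262, Atg4d had 266 and 226, and Atg4c had 465 and 471 on its brightest probe set. The second probe set of Atg4c went lower, with 404 and 239.

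The ATG8 family, the ubiquitin-like proteins that coat the autophagosome, differed in both directions. Map1lc3b, the source of the common autophagosome marker LC3B, had signals of 11542 and 7517, a level of 13.19 ± 0.44 (SD, n = 2), and was 1.54-fold higher on replicate 1. All 4 of its probe sets were above background and lower on replicate 2, by -0.73 to -0.18. Map1lc3a, its paralogue, had 885 and 1362, and was 1.54-fold higher on replicate 2. Both of its probe sets went this way, by 0.62 and 0.60. The first gave 0.66 with quantile normalization and -0.09 with scaling to the hybridisation controls. The log2 differences of these paralogues lay on opposite sides of the median of all genes.

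In the GABARAP branch, Gabarap had 6967 and 5922 and Gabarapl2 had 1989.6 and 2030.3, so neither differed by much between the arrays. Gabarapl1 gave a signal of 178 on replicate 1, above background, and of 86.9 on replicate 2, below it. Its second probe set had 90.6 and 3.07, below background on both arrays.

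The 3 cargo receptor genes above background on both arrays, Sqstm1, Nbr1 and Tax1bp1, were lower on replicate 2, also with quantile normalization, while Calcoco1 was above background on replicate 1 only. Sqstm1, the source of the ubiquitin-binding receptor p62, had signals of 1262 and 966. Nbr1, a related receptor, had 1929 and 1371, a log2 difference of -0.49. Tax1bp1, which also binds ubiquitin, had 2247 and 1833, and all 3 of its probe sets above background were lower, by -0.54 to -0.02. Calcoco1, a receptor for the endoplasmic reticulum, had 143 and 103. Bnip3, a receptor on the outer mitochondrial membrane that is induced in low oxygen, had 1220.3 and 596 on its single probe set and was 2.05-fold higher on replicate 1. Epg5, the tether that helps autophagosomes fuse with lysosomes, had 376 and 380.2.

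**Figure D3:**
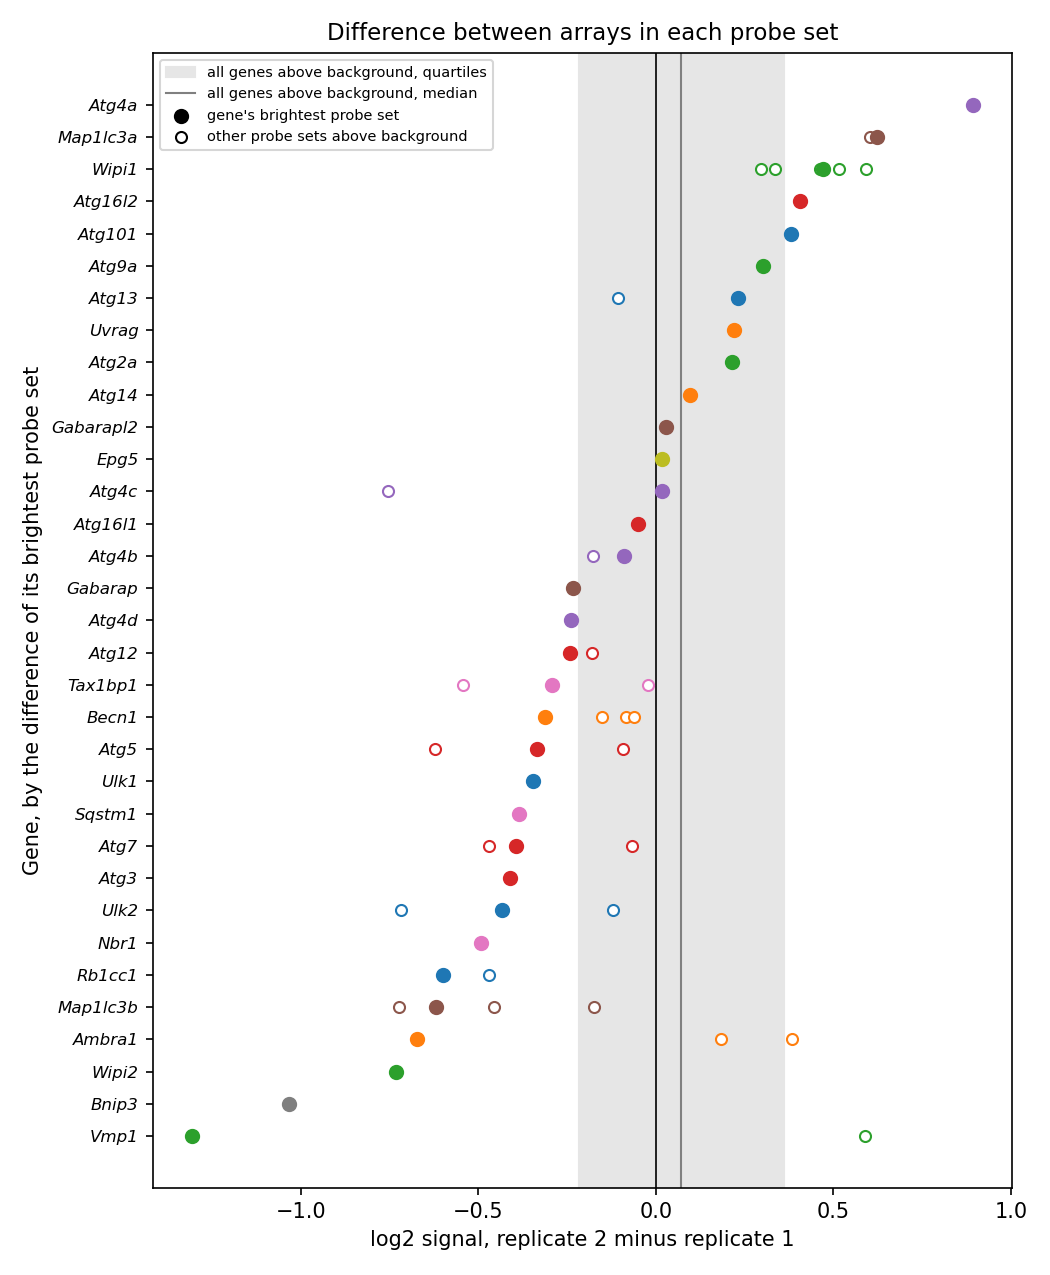
Difference between the arrays (log2 signal, replicate 2 minus replicate 1) of each probe set above background on both arrays, by gene, with the gene's brightest probe set filled and the others open. The grey band runs from the lower to the upper quartile of all genes above background; the probe sets of Wipi1 and Map1lc3b stay on 1 side of 0, and those of Vmp1 and Ambra1 lie on both.

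Probe sets of the same gene read different parts of its transcripts and share the RNA sample, so they are not replicates. Of the 15 members with several probe sets above background, 11 (73.3%) had them all on 1 side of 0. The share was 59.8% over the 3000 genes of the array with several such probe sets. In 9 of the 11 genes they were all lower on replicate 2, and in Wipi1 and Map1lc3a all higher. The exceptions were Atg13, Ambra1, Atg4c and Vmp1.

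Other genes of the pathway, in 5 further lists, were above background to a similar extent, with 64 of 71 measured genes (90.1%). Of all measured genes 40.4% were. None of the 64 was over 2-fold apart between the arrays, where 5.40% of all genes above background were. The median log2 difference of the 64 was -0.08, with 37 lower and 27 higher on replicate 2. Over all genes above background, 43.7% were lower. Upstream, 23 of 25 genes of MTORC1 and AMPK signalling, which hold autophagy in check or release it, were above background, 10 lower and 13 higher on replicate 2, with a median of 0.06. Prkaa1, a catalytic subunit of AMPK, had signals of 827 and 474, and Ddit4, an inhibitor of MTORC1 signalling, had 655 and 392. The nutrient stress gene Sesn2 had 557 and 358. These were the widest gaps of that list.

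Of the transcription factors of autophagy genes 8 of 10 were above background, with a median difference of -0.14. Zkscan3, a repressor of autophagy genes, had signals of 360.2 and 664, while the activator Foxo3 had 1582 and 1138. The E-box factors were named after their values were seen: Tfeb had 250.0 and 260.0, Tfe3 had 450.0 and 449.5, and Mitf had 189.8 and 166. Among 15 other genes of autophagosome formation 13 were above background (median -0.20), with the PI3P-binding Wdr45 at 844 and 466 and Trp53inp2 at 1685 and 2670.0. Of 7 other cargo receptor genes 6 were above it (median -0.16), with Retreg1, a receptor for the endoplasmic reticulum, at 3788 and 2232, and the ferritin receptor Ncoa4 at 6995 and 9708. All 14 measured fusion genes were above background (median -0.08), and the SNARE gene Snap29 had 411 and 219.5.

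**Figure D4:**
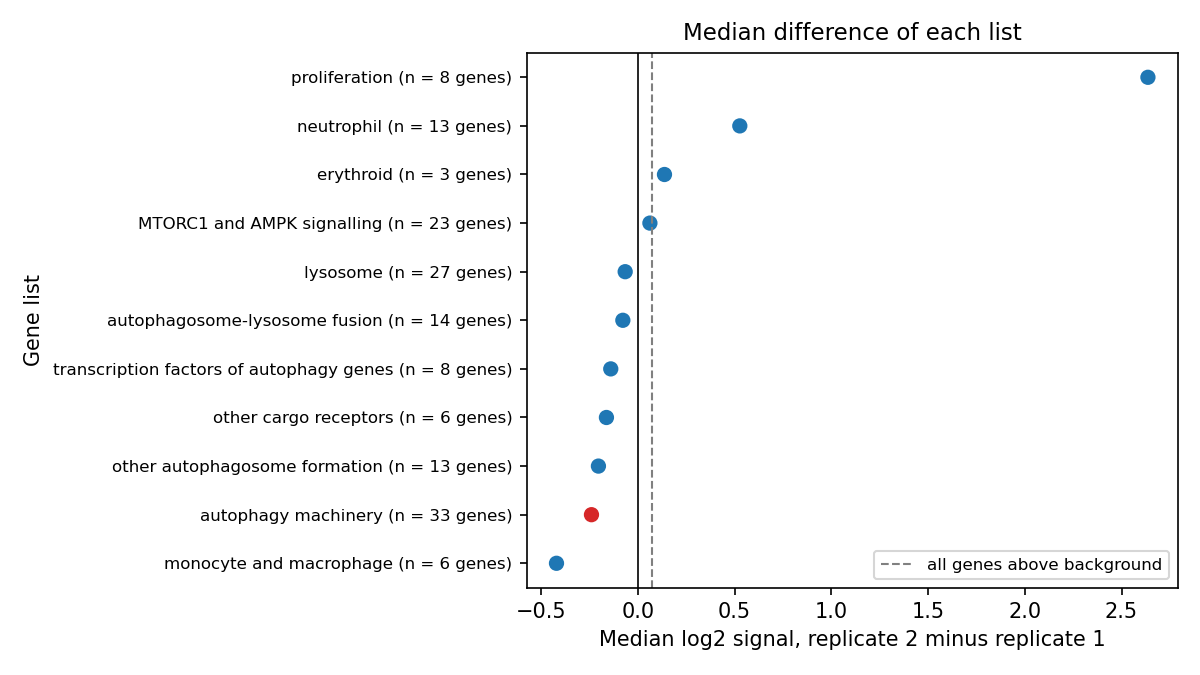
Median log2 difference (replicate 2 minus replicate 1) of each gene list with at least 3 genes above background, with the number of genes in brackets and the median of all genes above background as a dashed line. The autophagy machinery (red) lay at -0.24, beside -0.42 for monocyte and macrophage markers and 2.64 for proliferation genes.

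Markers of cell state and of other cells also differed between the arrays. Of 14 measured proliferation genes 8 were above background on both arrays, and each of the 8 had the higher signal on replicate 2 (median log2 difference 2.64). Over all genes above background, 43.7% were lower on replicate 2. Taken array by array, 8 of the 14 proliferation genes were above background on replicate 1 and 13 on replicate 2. The summed signal over the 14 genes was 2246 on replicate 1 and 11019 on replicate 2. Of the 13 monocyte and macrophage markers 6 were above background on both arrays, 5 of them lower on replicate 2, with a median of -0.42 (-0.19 without probe sets ending in _x_at or _s_at) and a summed signal of 7271 and 3517. Csf1r, the M-CSF receptor gene, with 5020.3 and 1928, made up most of that sum. None of these markers was listed at 0, and the dimmest on replicate 1, Ly86, had 15.9 and 32.2. The 13 neutrophil markers had a median of 0.53, with 10 higher and 3 lower on replicate 2. That median was 0.06 with quantile normalization, where the median of all genes was 0.05, and -0.19 with scaling to the hybridisation controls. The widest gaps among the neutrophil markers went both ways. Cxcr2 had 7212 and 3224 and Csf3r had 7951 and 4670, while S100a8 had 36506.5 and 64632 and Ltf had 18878 and 33399. The part of these lists in the differences of the autophagy genes was not tested.

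The level of a gene also went with its difference. When the genes above background were split by level into 3 equal groups, the median difference of all genes was 0.18 in the dimmest group, 0.08 in the middle and -0.03 in the brightest. The autophagy genes had medians of -0.09 (5 genes), -0.02 (16 genes) and -0.35 (12 genes) in the same groups. In the brightest group, Atg3, Becn1, Gabarap, Map1lc3b, Rb1cc1, Sqstm1, Nbr1, Tax1bp1 and Vmp1 were lower on replicate 2 on their brightest probe sets. The other probe set of Vmp1 went the opposite way, by 0.59. Wipi1, Map1lc3a and Gabarapl2 were higher as deposited, Gabarapl2 by 0.03.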

How the data were processed

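Total RNA of sorted bone marrow neutrophils (1 group, 2 samples) was labelled from 200 ng and hybridised to 1 Affymetrix array per sample, per the labels' protocols. The deposited values are linear signal intensities per probe set. The submitters' processing notes name MAS5 as the authors' tool, with no version or settings. Trimmed of 2% of probe sets at either end, the mean signal came to 250.0 on each array, so a difference is measured against this scaling. No detection calls were used.

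Gene names came from GEO's annotation of the platform (34958 with 1 gene, 932 with several, 9211 unnamed here); all 37 measured members had the same symbol in the RefSeq gene table (GRCm38.p6). A probe set was above background when its signal exceeded the 95th percentile of 87 probe sets of 78 sensory receptor genes on both arrays (2 of the 87 did); a gene, when any of its probe sets was. Signals were floored at 1 and log2-transformed, and a gene was read on the probe set with the highest mean. No test was run. Scripts used Python 3.11.15 with numpy 2.4.6 and pandas 2.3.3 and were tested on simulated data.

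Every measured member was named, and at most 4 genes of each other list, those with the widest differences. Tfeb, Tfe3, Mitf, Pik3c3, Pik3r4 and Ly86 were named outside this rule, after their values were seen. Members and lists were chosen with earlier results of these data known. The 16 other lists held 208 genes, 189 of them measured. The alternatives changed the background percentile, the probe sets kept or averaged, the scaling, the filter and the value added before log2. The number of arrays, 2, limits the precision.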

Additional observations from a re-analysis of the deposited data

Results flagged for a closer look

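Bnip3l, a mitophagy receptor gene, entered no comparison because its probe sets are shared. The platform annotation gives 3 probe sets to both Bnip3l and its pseudogene Bnip3l-ps, and all 3 were above background on both arrays. Their signals on replicates 1 and 2 were 5761 and 5231 on the first, 2529 and 2638 on the second, and 1398 and 1684 on the third. The log2 differences, replicate 2 minus replicate 1, were -0.14, 0.06 and 0.27. The signal cannot be divided between the gene and the pseudogene.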

How the results depend on the processing

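The count of 33 autophagy genes above background was 35 and 31 at the 90th and 99th percentile. It was 33 without probe sets ending in _x_at or _s_at and 28 with 1 probe set per gene. On a single array it was 34 to 35. The count over all 18194 measured genes was 7354 as deposited, and 8252 and 5957 at these percentiles. Over all genes it was 6971 without those probe sets, 5905 with 1 probe set per gene, and 8041 to 8418 on a single array. The median difference of -0.24 became -0.95 when the arrays were scaled to the hybridisation controls (all genes -0.64), and lay between -0.37 and -0.21 under the other alternatives. The 2 genes over 2-fold lower on replicate 2 became 15 with that scaling, 1 (Vmp1) with 32 added before log2, 1 (Bnip3) with the mean over a gene's probe sets, and 3 (also Gabarapl1) without the background filter. No gene was over 2-fold higher except 1 without that filter, Atg10, which lay below background on both arrays. Signs of single genes changed in 12 of 33 with scaling to the controls, 4 with median scaling, 3 with quantile normalization and 1 with averaged probe sets. Over the 7354 genes above background the split over 2-fold was 145 lower and 252 higher as deposited, and 235 and 163 with median scaling. It was 153 and 222 with quantile normalization and 1518 and 33 with the controls. With 32 added before log2 it was 117 and 171, and with averaged probe sets 134 and 221. Without the background filter, 2108 of 18194 genes were over 2-fold lower and 2823 over 2-fold higher. No paired analysis was possible because there is 1 group.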

Other observations

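The lysosome, to which autophagosomes deliver their cargo, was represented by 28 measured genes, of which 27 (96.4%) were above background on both arrays. Over all measured genes the share was 40.4%. The median log2 difference of these 27 lysosome genes was -0.06, with 17 lower and 10 higher on replicate 2 and none over 2-fold apart. Over all genes above background the median was 0.07, 43.7% were lower and 5.40% were over 2-fold apart. The widest gaps among the lysosome genes included the protease genes Ctss (signals of 1670.2 and 858), Ctsa (667 and 367) and Ctsl (1051 and 640.2). They also included the beta-galactosidase gene Glb1, with 117 and 218, where 117 is close above the background of 108.

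Several autophagy genes with a bright probe set also had a dim one. Of the 88 probe sets of members, 16 (18.2%) were below background on both arrays, and some of these belonged to genes that were otherwise bright. That share was not counted over the whole array, so a dim probe set is not shown to be particular to these genes. Above background on both arrays were 69.3% of the member probe sets and 35.5% of all single-gene probe sets. Atg3 had signals of 8982 and 6759.7 on one probe set and 101 and 3.61 on another. Rb1cc1 had 2375 and 1568 against 47.2 and 8.32, and Becn1 had 6249 and 5029 against 72.1 and 36.1. The second probe set of Ulk1, with 133 and 13.3, was above background on the first array only, where the brighter probe set of that gene had 669 and 526.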
